A study of Mus musculus with 23 samples.

Results

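The ectodysplasin signalling genes are 8 genes chosen by name: Eda, Edar, Edaradd, Eda2r, Traf6, Nfkbia, Relb and Ikbkg. All 8 were found among the 54347 genes of the count table, by Ensembl gene identifier with the version dropped. They were followed across 23 RNA-seq libraries made from sorted mouse incisor cells. The lower incisors came from mice at postnatal day 2 of the Sox2-GFP line, in which green fluorescent protein follows the endogenous promoter of Sox2, and the dissected piece was the labial cervical loop, the fold of dental epithelium at the growing end of the tooth. After enzymatic dissociation, fluorescence sorting gave a Sox2-positive fraction, labelled as dental epithelial stem cells (DESC), and a Sox2-negative fraction, which is everything else in the piece. Every animal carried the reporter, and no other allele or treatment is given. Batch A and batch B were separate days with different mice: batch A held 6 Sox2-negative and 6 Sox2-positive libraries, and batch B held 4 Sox2-negative and 7 Sox2-positive libraries. Age, line and dissection were shared by all 4 groups. The labels do not say whether the libraries of a batch came from different mice or how many cells each held, so n counts libraries and the p-values measure the spread between these libraries, which may be technical.

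Ectodysplasin is a ligand of the tumour necrosis factor family made by the gene Eda. The secreted ligand binds the receptor Edar, and the adaptor Edaradd couples the death domain of Edar to TRAF6 and the kinase complex that contains NEMO (encoded by Ikbkg). That complex releases NF-κB from its inhibitor IκBα (encoded by Nfkbia). Another splice form of the ligand binds a different receptor, Eda2r. The pathway is known for its part in teeth, hair and glands: loss of Eda, Edar or Edaradd function gives hypohidrotic ectodermal dysplasia, with missing and misshapen teeth.

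Library totals ran from 2305780 to 9541440 estimated counts (median 4831090). Levels are given as CPM (counts divided by each library's TMM-scaled total, times the same constant), and the floor, the level of 3 counts, lay between 0.357 and 1.30 CPM. Floors cover counting error only; the 95% intervals come from the fit and carry the spread between libraries. Sox2, the gene behind the sort, was at 0.0436 ± 0.107 CPM (SD, n = 6) in batch A Sox2-negative and 7.27 ± 4.41 CPM (n = 6) in batch A Sox2-positive libraries. In batch B it was at 0.297 ± 0.594 CPM (n = 4) in Sox2-negative and 16.4 ± 2.91 CPM (n = 7) in Sox2-positive libraries. The summed level of 10 epithelial markers separated the sorts, at 229 to 354 and 474 to 607 CPM in the Sox2-negative libraries of batches A and B against 5055 to 5464 and 5379 to 8271 CPM in the Sox2-positive ones. Within batch B, Sox2-positive libraries 1 and 2 stood at 5588 and 5379 CPM, and libraries 3 to 7 at 7742 to 8271 CPM. Mitochondrially encoded genes held 1.71% and 1.77% of counts in batch B Sox2-negative libraries 1 and 2, and 2.47% and 2.32% in 3 and 4. Results without the batch B libraries numbered 1 and 2 are given below. Markers of mesenchyme (12062 to 13574 and 11251 to 14341 CPM), leukocytes (1302 to 1562 and 295 to 392 CPM) and red cells (985 to 1179 and 53611 to 62034 CPM) marked the Sox2-negative libraries of batches A and B, in that order. Glial markers stood at 782 to 995 CPM in batch A Sox2-positive libraries and at 36.3 to 73.9 CPM in those of batch B. Mesenchymal markers summed to 1232 to 1788 and 608 to 697 CPM in the same libraries, with Twist1 of that list at 0 in all of them. The Sox2-positive libraries thus held RNA of glial and mesenchymal markers, and whether it came from cells of those types was not tested. Ameloblast markers went the other way from the 10 epithelial markers. In batch A they summed to 747 to 940 CPM in Sox2-negative and 289 to 349 CPM in Sox2-positive libraries. In batch B the sums were 593 to 712 and 6.82 to 10.1 CPM. In bulk libraries of this kind, fewer cells of a type and less RNA per cell cannot be told apart.

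Within the pathway, the adaptor Edaradd and the kinase-complex subunit Ikbkg were higher in Sox2-positive cells in both batches, by 5.71-fold and 2.41-fold over the 23 libraries. The level of Ikbkg is uncertain where it overlaps G6pdx, a gene on the opposite strand. The ligand Eda was also higher over both batches, 2.58-fold, a call close to the threshold (adjusted p = 0.0481). Nfkbia was lower in Sox2-positive cells in batch A and did not pass the test in batch B. Its population difference itself differed between the batches (edgeR interaction, adjusted p = 0.0231). That call was lost without the batch B libraries numbered 1 and 2 (adjusted p = 0.341). The receptors Edar and Eda2r were sparse, with at least 1 library at 0 in every group, and neither passed the test over both batches. Over both batches 5 of the 8 genes passed the test (edgeR quasi-likelihood F test, Benjamini-Hochberg adjusted p under 0.05), 3 higher and 2 lower in Sox2-positive cells. Of all 17190 genes tested in that comparison 57.5% were called, 24.9% higher and 32.5% lower, so a share of 5 in 8 is near the background. The median log2 fold change of the 8 genes was 1.04, against -0.12 over all genes tested. It lay between the values of Edar (0.80, not called) and Ikbkg (1.27), so it rests on members that are unresolved or uncertain. The median was 1.04 over the 6 tested in batch A (all genes -0.04). In batch B it was 0.13 over the 7 tested (all genes 0.01). Members went both ways.

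**Figure D1:**
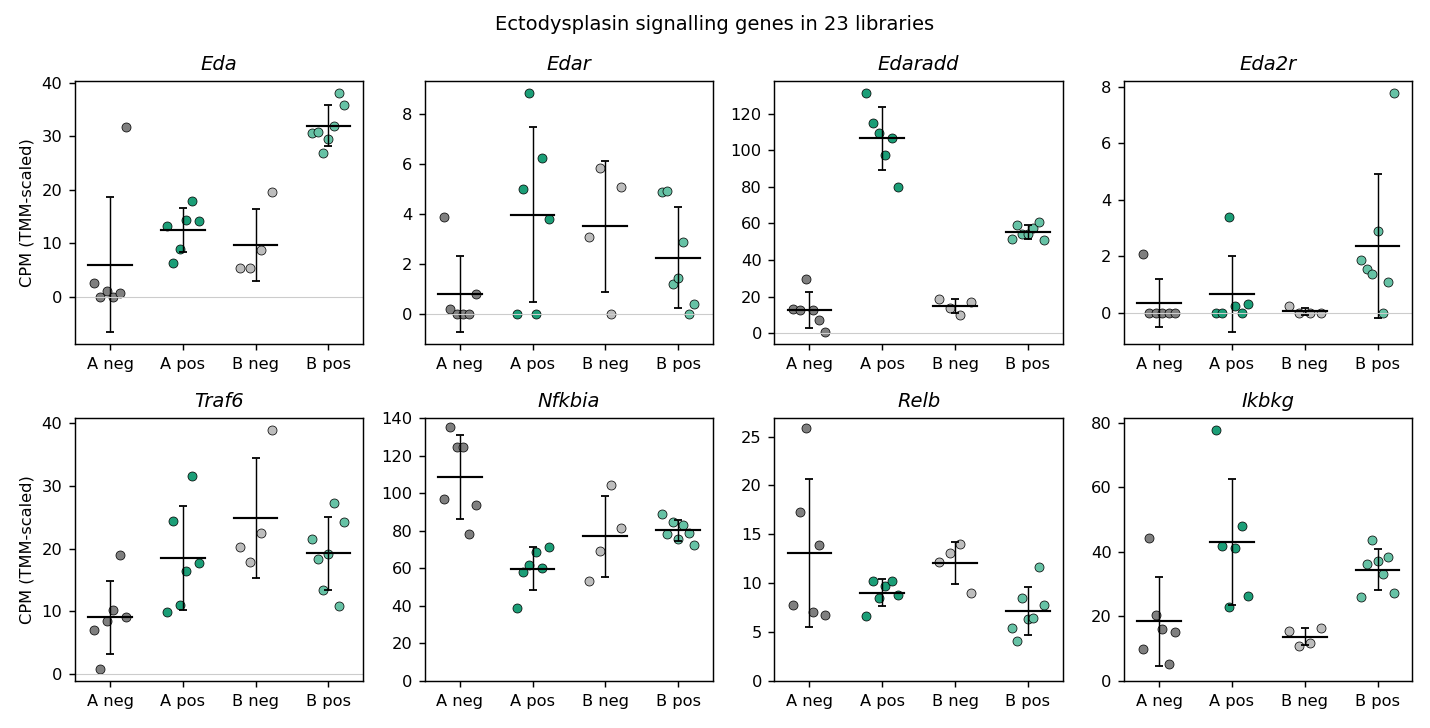
Level of each of the 8 ectodysplasin signalling genes (vertical axis, TMM-scaled CPM, a separate linear scale for each gene) in each library of the 4 groups (A neg and A pos, batch A Sox2-negative and Sox2-positive; B neg and B pos, the same in batch B). Points are libraries, horizontal bars are means and error bars are SD; Edaradd in Sox2-positive libraries (79.7 to 131 and 51.0 to 61.0 CPM) lies above all Sox2-negative libraries, and 1 batch A Sox2-negative library stands at 31.7 CPM of Eda.

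Eda, the ligand gene (ENSMUSG00000059327.9, mm10 chromosome X, 99975606 to 100400762, plus strand), was lowest in the Sox2-negative cells of batch A. In those 6 libraries Eda ran from 0 to 31.7 CPM with a median of 0.948 CPM, and 2 of them held no count. In the 6 batch A Sox2-positive libraries it ran from 6.28 to 17.9 CPM, with a median of 13.7 CPM. The ranges of these 2 groups overlapped through a single Sox2-negative library, number 6, with 118 counts of Eda, while the other 5 lay at or under 2.59 CPM.

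The 4 batch B Sox2-negative libraries held 5.35, 5.40, 8.81 and 19.5 CPM of Eda. The 7 batch B Sox2-positive libraries ran from 26.8 to 38.1 CPM, with a median of 30.8 CPM. In batch B the groups did not overlap, and every Sox2-positive library of batch B also lay above every Sox2-positive library of batch A. Over both batches the log2 fold change of Eda was 1.36 ± 0.59 (SE; 95% interval 0.16 to 2.57; adjusted p = 0.0481). The call was lost without any of 18 of the 23 libraries (adjusted p up to 0.0737), was kept at adjusted p = 2.16e-05 with a log2 fold change of 2.61 without Sox2-negative library 6 of batch A, and was also lost with RLE size factors (adjusted p = 0.0501) and without the batch B libraries numbered 1 and 2 (1.15, adjusted p = 0.173). The other 4 libraries whose removal kept it were Sox2-positive 2 and 3 of batch A, Sox2-negative 4 of batch B and Sox2-positive 3 of batch B.

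Within batch A the log2 fold change of Eda was 1.05 ± 1.05 (95% interval -1.18 to 3.28; adjusted p = 0.447), and without Sox2-negative library 6 it was 3.79 (adjusted p = 0.00274). Within batch B it was 1.78 ± 0.34 (adjusted p = 0.000321), which passed in the batch B libraries alone and missed the threshold where all 4 groups shared 1 estimate of the spread (1.71, adjusted p = 0.113). The population difference of Eda did not pass the test of a difference between the batches (interaction 0.64 ± 1.12 on the log2 scale, adjusted p = 0.83; -2.09 and adjusted p = 0.093 without library 6). That library stood apart in the ligand and not in the marker sums: its epithelial sum was 311 CPM and its mesenchymal sum 13150 CPM, inside the ranges of its group, and its leukocyte sum of 1562 CPM was the highest of the 6. It also held the lowest Edaradd of all 23 libraries, 0.537 CPM. The part of these values in its Eda level was not tested.

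Edar, the receptor of the ectodysplasin pathway in skin and tooth epithelium (ENSMUSG00000003227.4, chromosome 10, 58600789 to 58675654, minus strand), was sparse. It ran from 0 to 3.88 CPM (median 0.107) in batch A Sox2-negative and from 0 to 8.84 CPM (median 4.42) in batch A Sox2-positive libraries. In batch B it was at 3.09, 5.85, 0 and 5.10 CPM in the Sox2-negative libraries, and from 0 to 4.94 CPM (median 1.45) in the Sox2-positive ones. Every group held at least 1 library with no Edar count, no library held more than 47 counts, and all groups overlapped. The log2 fold change over the 23 libraries was 0.80 ± 0.94 (95% interval -1.12 to 2.72; adjusted p = 0.476), an interval wide enough to hold a fall or a severalfold rise. No difference in Edar was resolved in these 23 libraries, and the part of depth was not tested.

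Eda2r, the receptor of the other ligand form (ENSMUSG00000034457.10, chromosome X, 97333840 to 97377216, minus strand), was at 0 in 5 of 6 batch A Sox2-negative, 3 of 6 batch A Sox2-positive and 3 of 4 batch B Sox2-negative libraries. In batch B Sox2-positive cells 6 of 7 libraries stood above the floor, at 0 to 7.78 CPM with a median of 1.55 CPM, so batch B Sox2-positive was the group in which Eda2r was seen most often. The highest count in any library was 18. The log2 fold change with batch as a covariate was 2.42 ± 1.17 (95% interval 0.02 to 4.82; adjusted p = 0.0778), a fitted value that depends on the prior count, and the gene failed the low-count filter in each batch alone. Without that filter it passed in batch B (adjusted p = 0.00134) and not in batch A (adjusted p = 0.628). The difference between the batches did not pass (interaction adjusted p = 0.323), nor did it without the filter (0.364). The adjusted p over both batches fell to between 0.0477 and 0.0496 without Sox2-positive library 1, 2 or 5 of batch A.

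Edaradd, the adaptor (ENSMUSG00000095105.2, chromosome 13, 12472632 to 12520438, minus strand), was higher in Sox2-positive cells in both batches. Batch A Sox2-negative libraries ran from 0.537 to 29.8 CPM (median 12.7), and batch A Sox2-positive libraries from 79.7 to 131 CPM (median 108). Batch B Sox2-negative libraries held 18.5, 13.7, 10.1 and 17.2 CPM, and batch B Sox2-positive libraries ran from 51.0 to 61.0 CPM (median 54.3). Every Sox2-positive library lay above every Sox2-negative library of both batches, and the 2 Sox2-negative groups overlapped while the 2 Sox2-positive groups did not. Across the 2 batches together the log2 fold change came to 2.51 ± 0.31 (95% interval 1.88 to 3.14; adjusted p = 1.05e-07). It was 3.08 ± 0.48 in batch A (adjusted p = 8.84e-05) and 1.97 ± 0.19 in batch B (adjusted p = 3.93e-07), and each of the 3 calls held without any single library and under each alternative setting run.

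Edaradd in Sox2-positive cells was higher in every library of batch A than in any of batch B, with group means of 107 ± 17.3 CPM (n = 6) and 55.5 ± 3.82 CPM (n = 7). The test of that batch difference gave a log2 fold change of -0.94 ± 0.34, batch B over batch A (adjusted p = 0.0777). It passed with total-count scaling (-1.03, adjusted p = 0.0461), without the low-count filter (adjusted p = 0.0267), with DESeq2 (adjusted p = 0.0354), and without Sox2-negative library 3 (adjusted p = 0.0329) or 6 (adjusted p = 0.00461) of batch A. The difference of the population difference between batches did not pass (interaction -1.18 ± 0.53, adjusted p = 0.205), and passed without Sox2-negative library 3 of batch A (-1.62, adjusted p = 0.033). In batch A the mean of Edaradd in Sox2-negative cells was 11.9% of that in Sox2-positive cells, and in batch B 26.8%. The summed epithelial markers stood at 5.59% and 7.18%, and single epithelial markers ranged from 0.172% (Krt15) to 21.1% (Cldn1) in batch A and from 0.839% (Krt15) to 25.5% (Cdh1) in batch B. The part that residual epithelial cells play in the Sox2-negative Edaradd level was not tested.

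The stretch in front of Edaradd is shown because this adaptor differed between populations sorted on Sox2 in both batches, with no overlap of the libraries. It is the 250 bases before the RefSeq start of the gene, chr13:12520451-12520700 of mm10 (GRCm38.p6), read 5′ to 3′ on the minus strand. The capitals mark the only match to the words searched, CTTTGT, which is the SOX core variant ACAAAG on the other strand and begins 145 bases before the start.
Edaradd: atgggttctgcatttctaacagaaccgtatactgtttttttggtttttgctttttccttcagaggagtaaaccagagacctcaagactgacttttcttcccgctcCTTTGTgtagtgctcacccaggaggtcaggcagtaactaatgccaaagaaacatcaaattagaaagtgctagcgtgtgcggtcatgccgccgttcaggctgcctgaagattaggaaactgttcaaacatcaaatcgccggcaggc
The words searched on both strands were the SOX core ACAATG, its variant ACAAAG and the κB consensus, and 7 of the 8 genes matched the RefSeq table (Relb did not). Of 32851 windows of 250 bases in front of mouse RefSeq starts, 10.7% held ACAATG, 16.5% held ACAAAG and 7.25% held the κB consensus. Among the members Traf6 held both SOX words and Nfkbia held the κB consensus. Ikbkg had 4 starts: the windows of starts 1 and 2 held ACAATG, and those of starts 3 and 4 held none of the words. The shares above are per window, so a gene with several starts has more than 1 chance of a match. No word overlapped another in these windows. Such a match is a description of letters and was not tested for binding.

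Traf6, the ubiquitin ligase that passes the signal from the adaptor to the kinases (ENSMUSG00000027164.8, chromosome 2, 101678429 to 101701669, plus strand), did not separate the populations. Batch A Sox2-negative libraries ran from 0.855 to 18.9 CPM (median 8.79), and batch A Sox2-positive libraries from 9.96 to 31.6 CPM (median 17.0). In batch B the Sox2-negative libraries held 20.2, 17.9, 22.5 and 38.9 CPM, and the Sox2-positive ones ran from 10.9 to 27.3 CPM (median 19.2). All groups overlapped; the 2 Sox2-negative groups did so only through library 5 of batch A (18.9 CPM) and library 2 of batch B (17.9 CPM). The log2 fold change between populations was 0.35 ± 0.34 over both batches (95% interval -0.34 to 1.04; adjusted p = 0.384), 1.03 ± 0.55 in batch A (adjusted p = 0.139) and -0.31 ± 0.29 in batch B (adjusted p = 0.383). Within Sox2-negative cells it was higher in batch B than in batch A, by 1.45 ± 0.47 on the log2 scale (adjusted p = 0.0451). It was the only member called there, where 11.2% of all genes were (5.85% higher and 5.35% lower in batch B). That call was lost with RLE size factors (adjusted p = 0.0529), with total-count scaling (0.0696), without the batch B libraries numbered 1 and 2 (0.115) and without any of 15 of the 23 libraries (adjusted p up to 0.156); the 8 whose removal kept it were Sox2-negative 2 and 5 of batch A, Sox2-positive 1, 3 and 5 of batch A and Sox2-positive 3, 5 and 6 of batch B.

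Ikbkg, which encodes the regulatory subunit NEMO of the IκB kinase complex (ENSMUSG00000004221.16, chromosome X, 74393290 to 74453854, plus strand), was higher in Sox2-positive cells. Batch A Sox2-negative libraries ran from 5.25 to 44.4 CPM (median 15.5), and batch A Sox2-positive libraries from 22.9 to 77.9 CPM (median 41.6). In batch B the Sox2-negative libraries held 15.3, 10.95, 11.9 and 16.5 CPM, and the Sox2-positive ones ran from 25.9 to 43.7 CPM (median 36.3). The groups were separate in batch B, and in batch A they overlapped through Sox2-negative library 2 at 44.4 CPM. The log2 fold change was 1.27 ± 0.27 over both batches (adjusted p = 0.000219), 1.23 ± 0.45 in batch A (adjusted p = 0.0352) and 1.41 ± 0.23 in batch B (adjusted p = 7.66e-05). Without any single library the calls over both batches and in batch B held. The batch A call was lost without any of 8 of its 12 libraries (adjusted p up to 0.0999) and was kept without Sox2-negative 2 (1.70, adjusted p = 0.00364) or 3, or Sox2-positive 3 or 6. The difference between the batches did not pass (interaction 0.12 ± 0.52, adjusted p = 0.948).

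Ikbkg shares its locus with G6pdx, the gene of glucose-6-phosphate dehydrogenase on the opposite strand, which was at a mean of 35.8 CPM. G6pdx was itself higher in Sox2-positive cells, by 1.11 ± 0.20 over both batches, 1.30 ± 0.29 in batch A and 0.99 ± 0.28 in batch B on the log2 scale (adjusted p = 3.93e-05, 0.00167 and 0.00666). The strand setting of the counting is not given in the sources used here, so the level of Ikbkg is uncertain where the 2 genes overlap.

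Nfkbia, the gene of the inhibitor IκBα and itself a known NF-κB target (ENSMUSG00000021025.8, chromosome 12, 55489410 to 55492647, minus strand), was lower in Sox2-positive cells in batch A and did not pass the test in batch B. Batch A Sox2-negative libraries ran from 78.2 to 135 CPM (median 111), and batch A Sox2-positive libraries from 38.8 to 71.4 CPM (median 60.8), with no overlap. In batch B the Sox2-negative libraries held 53.3, 69.0, 105 and 81.6 CPM, and the Sox2-positive ones lay inside that span at 72.6 to 88.8 CPM (median 78.8). Every Sox2-positive library of batch B was above every Sox2-positive library of batch A.

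The log2 fold change of Nfkbia was -0.86 ± 0.19 in batch A (adjusted p = 0.00151) and 0.13 ± 0.17 in batch B (95% interval -0.22 to 0.48; adjusted p = 0.53). The test of the difference between the batches passed (interaction 0.93 ± 0.25; 95% interval 0.41 to 1.45; adjusted p = 0.0231). It was the only 1 of the 8 genes called there, with a positive value, where 7.04% of all genes were (2.82% positive and 4.22% negative). That call was lost without batch B Sox2-negative library 1 (0.78, adjusted p = 0.073) or 2 (0.88, adjusted p = 0.0611), without the low-count filter (adjusted p = 0.0566) and without the batch B libraries numbered 1 and 2 together (0.62, adjusted p = 0.341). Over both batches Nfkbia was 1.37-fold lower in Sox2-positive cells (log2 fold change -0.45 ± 0.16, adjusted p = 0.0163). This call was lost without Sox2-positive library 1 (-0.32, adjusted p = 0.0727), 2 (adjusted p = 0.0607) or 5 (0.0599) of batch A or Sox2-negative library 3 of batch B (0.0614), with total-count scaling (adjusted p = 0.0801) and without the filter (0.0708).

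Taken within 1 population, the batch difference of Nfkbia did not pass, with a log2 fold change of -0.50 ± 0.19 in Sox2-negative cells (adjusted p = 0.0921) and 0.43 ± 0.16 in Sox2-positive cells (adjusted p = 0.107), batch B over batch A. The first passed with total-count scaling (-0.64, adjusted p = 0.0318), with DESeq2 (adjusted p = 0.0387), and without Sox2-negative library 5 of batch A (adjusted p = 0.0467) or 3 of batch B (0.0358). Immediate early genes, which respond within minutes to tissue handling and other stimuli, also differed between the batches. Their summed level was 862 to 1043 CPM in Sox2-negative and 1606 to 2247 CPM in Sox2-positive libraries of batch A, and 203 to 273 and 137 to 245 CPM in those of batch B. Of the 10 genes, 7 were lower in batch B within Sox2-negative and 9 within Sox2-positive cells, where 5.35% and 5.54% of all genes were. Mean Nfkbia went the same way in Sox2-negative cells (109 and 77.1 CPM in batches A and B) and the other way in Sox2-positive cells (59.8 and 80.3 CPM). Of 10 leukocyte markers, 5 were lower in batch B within Sox2-negative cells, where 5.35% of all genes were. The part of either in the Nfkbia values was not tested.

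The stretch in front of Nfkbia is shown because the κB consensus, the word bound by the factor that IκBα restrains, lies in it. It is the 250 bases before the RefSeq start, chr12:55492648-55492897 of mm10, read 5′ to 3′ on the minus strand. The capitals mark the match GGAAATTCCC, which begins 29 bases before the start. Any match to the κB consensus, of which this is 1 form, was held by 7.25% of windows.
Nfkbia: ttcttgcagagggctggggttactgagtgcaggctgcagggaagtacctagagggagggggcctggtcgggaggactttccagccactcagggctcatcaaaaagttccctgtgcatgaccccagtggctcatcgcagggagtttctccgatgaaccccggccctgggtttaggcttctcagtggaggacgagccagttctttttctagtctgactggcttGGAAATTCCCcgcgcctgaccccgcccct
The window of Nfkbia is 59.2% G and C and that of Edaradd 46%, against a median of 52.4% over all windows.

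Relb, a transcription factor of the alternative NF-κB branch (ENSMUSG00000002983.17, chromosome 7, 19606217 to 19629438, minus strand), was lower in Sox2-positive cells over both batches. Batch A Sox2-negative libraries ran from 6.72 to 25.8 CPM (median 10.8) and Sox2-positive ones from 6.64 to 10.3 CPM (median 9.24). In batch B the Sox2-negative libraries held 12.1, 13.1, 14.0 and 9.01 CPM and the Sox2-positive ones ran from 4.10 to 11.6 CPM (median 6.46). All groups overlapped. With both batches in the fit, the log2 fold change was -0.64 ± 0.27 (adjusted p = 0.0427), and it missed the threshold in batch A (-0.53 ± 0.44, adjusted p = 0.353) and in batch B (-0.68 ± 0.34, adjusted p = 0.103). The call was lost without any of 18 of the 23 libraries (adjusted p up to 0.111), with total-count scaling (-0.51, adjusted p = 0.10), without the filter (-0.56, adjusted p = 0.209) and without the batch B libraries numbered 1 and 2 (-0.47, adjusted p = 0.217). It was kept without Sox2-negative 1, 4 or 6 or Sox2-positive 4 of batch A, or Sox2-positive 6 of batch B.

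**Figure D2:**
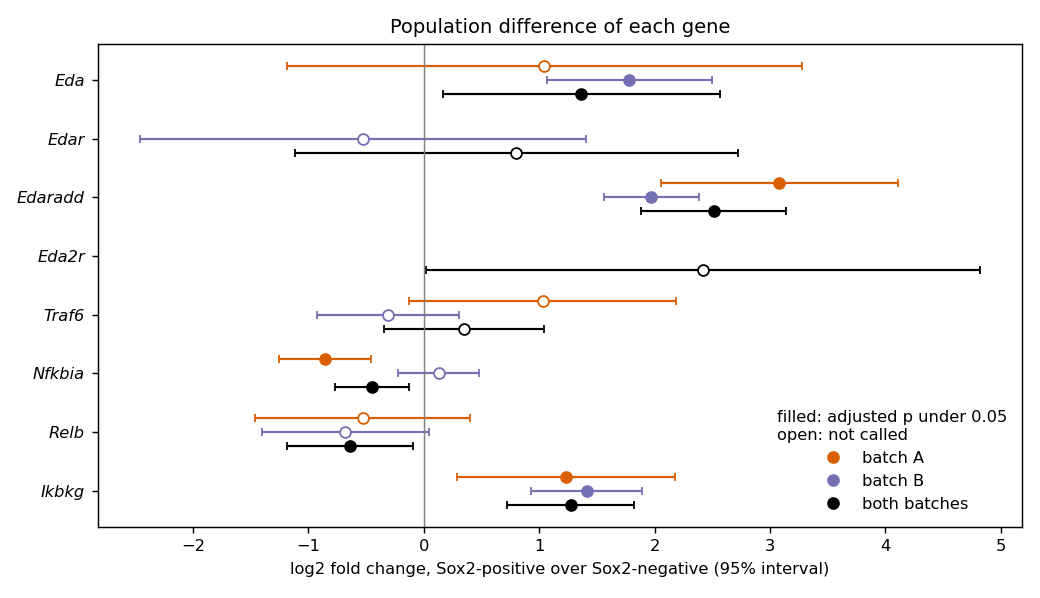
Log2 fold change of each ectodysplasin signalling gene, Sox2-positive over Sox2-negative (horizontal axis), in batch A, in batch B and over both batches, with 95% intervals. Filled points passed at an adjusted p under 0.05 and open points did not; Edaradd and Ikbkg are filled in all 3 fits, Nfkbia is filled at -0.86 in batch A and open at 0.13 in batch B, and a gene that failed the filter in a fit has no point there.

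Read by batch, 3 of the 6 members that passed the filter in batch A were called, 2 higher and 1 lower, where 43.4% of all genes tested were (19.3% higher and 24.2% lower). In batch B 3 of 7 were called, all higher, where 54.7% were (27.1% higher and 27.6% lower). Between the batches none of the 8 was called within the Sox2-positive fraction (edgeR), where 10.4% of all genes were (4.85% higher and 5.54% lower in batch B); Edaradd and Nfkbia had an unadjusted p of 0.00967 and 0.0155, and DESeq2 called 1. By separation of ranges, 2 members were apart between the populations of batch A, Edaradd and Nfkbia, against 25.2% of all genes. In batch B 3 were apart, Eda, Edaradd and Ikbkg, against 36.4%. Between the batches 3 members were apart in Sox2-positive cells, Eda, Edaradd and Nfkbia, against 8.56% of all genes, and 0 in Sox2-negative cells, against 8.87%. Of these 3, Eda and Nfkbia were higher and Edaradd lower in batch B.

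**Figure D3:**
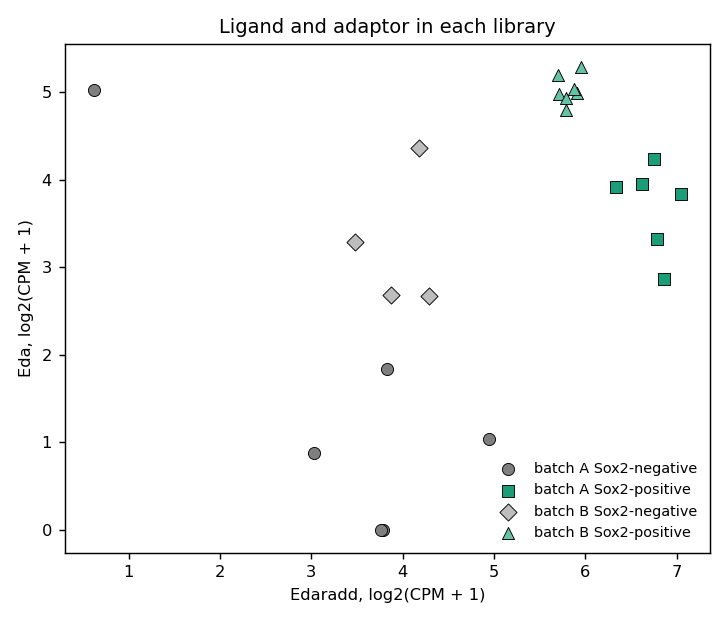
Eda (vertical axis) against Edaradd (horizontal axis), both as log2(CPM + 1), with 1 point per library and 1 symbol per group. Batch B Sox2-positive libraries lie at the highest Eda of any group and batch A Sox2-positive libraries at the highest Edaradd, and 1 batch A Sox2-negative library combines an Eda of 31.7 CPM with an Edaradd of 0.537 CPM.

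Ligand and adaptor took opposite places in the 2 Sox2-positive groups. Eda averaged 12.5 ± 4.18 CPM (n = 6) in batch A and 32.0 ± 3.83 CPM (n = 7) in batch B, a log2 difference of 1.35 ± 0.74 that did not pass the test (adjusted p = 0.30), while Edaradd averaged the 107 and 55.5 CPM given above. For Eda within Sox2-negative cells the batch difference was 0.71 ± 0.84 (adjusted p = 0.659), and 3.45 (adjusted p = 0.000506) without Sox2-negative library 6 of batch A.

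Levels of different genes can be set beside each other only per transcript length. On the scale of CPM per kilobase of mean coding transcript, Nfkbia was highest of the 8 in every group, at 69.0 ± 14.2 in batch A Sox2-negative, 37.9 ± 7.28 in batch A Sox2-positive libraries, and 48.9 ± 13.7 and 50.9 ± 3.53 in the same fractions of batch B. Edar and Eda2r were lowest in every group, at no more than 1.10 ± 0.964 CPM per kilobase. In batch A Sox2-positive libraries Edaradd (16.0 ± 2.60) and Ikbkg (13.5 ± 6.16) followed Nfkbia, and by mean length the 2 did not differ beyond their spread. By the longest coding transcript Ikbkg stood at 6.16 and Edaradd at 16.0 CPM per kilobase in these libraries. In batch B Sox2-positive libraries Ikbkg (10.8 ± 1.97), Edaradd (8.32 ± 0.573) and Eda (7.76 ± 0.931) followed, with neighbours within their spread. In the Sox2-negative groups Relb came next to Nfkbia (7.92 ± 4.58 and 7.29 ± 1.31 CPM per kilobase in batches A and B). Where the longest coding transcript replaced the mean length, Ikbkg fell behind Edaradd and Eda in batch B Sox2-positive libraries (4.93, 8.32 and 6.26 CPM per kilobase), since its 16 coding transcripts run from 278 to 6994 bases.

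Of 24 other NF-κB pathway genes, all of which passed the filter, 3 were higher and 12 lower in Sox2-positive cells over both batches, and 9 did not pass; 62.5% were called, against 57.5% of all genes, and their median log2 fold change was -0.54, against -0.12. In batch A 2 were higher and 10 lower (50% called, against 43.4% of all genes), in batch B 2 higher and 8 lower (41.7%, against 54.7%), and 7 were lower in all 3 fits. Of all genes tested, 32.5% were lower over both batches, 24.2% in batch A and 27.6% in batch B. The share of all genes lower in all 3 fits is not given here. The 4 with the lowest values among those 7 were Bcl3 and Nfkbiz, atypical IκB proteins of the nucleus, Map3k14, the kinase NIK of the alternative branch, and Rel, the c-Rel subunit. Bcl3 fell by 3.26 ± 0.54 over both batches (adjusted p = 1.17e-05) and Nfkbiz fell by 2.96 ± 0.41 (7.51e-07) on the log2 scale. Map3k14 fell by 2.88 ± 0.63 (adjusted p = 0.000335) and Rel fell by 1.95 ± 0.46 (0.000803). Bcl3 ranged from 6.72 to 29.9 CPM in batch A Sox2-negative against 0.941 to 3.10 CPM in Sox2-positive libraries, and from 3.30 to 15.3 against 0 to 4.75 CPM in batch B. The 3 called higher over both batches were Tab1 (0.86 ± 0.24), Traf2 (0.66) and Rela (0.50 ± 0.17), none of which passed in both batches alone; they are named after their values were seen. None of the 24 passed the test of a difference between batches in edgeR, 2 had an unadjusted p under 0.05, and DESeq2 called 1; Nfkb1 (0.71, adjusted p = 0.0761) was nearest in edgeR. With total-count scaling the split over both batches was 5 higher and 10 lower. Leukocyte markers, all 10 of which were lower in Sox2-positive cells, moved the same way as these genes, from sums of 1302 to 1562 and 295 to 392 CPM in Sox2-negative to 7.31 to 16.3 and 7.89 to 16.7 CPM in Sox2-positive libraries of batches A and B. Laptm5 and Itgam were at 0 in every batch A Sox2-positive library, and Tyrobp and Csf1r in every batch B one. The part of leukocyte RNA in the NF-κB values was not tested.

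Of 15 genes reported to respond to Edar signalling, 9 passed the filter; Fgf20, Dkk4, Wnt10b, Lta, Cxcl11 and Madcam1 did not. Over both batches 4 of the 9 were higher in Sox2-positive cells and 4 lower (88.9% called, against 57.5% of all genes, 24.9% higher and 32.5% lower), with a median log2 fold change of -0.63, against -0.12 for all genes. Fst, the gene of the activin inhibitor follistatin, and Sostdc1, an inhibitor of Wnt and BMP signals also known as ectodin, were higher in all 3 fits. Fst ran from 0.214 to 18.2 CPM in batch A Sox2-negative and from 24.4 to 61.9 CPM in Sox2-positive libraries, and from 3.75 to 20.4 and 50.7 to 105 CPM in batch B. The groups of each batch did not overlap, and over both batches the log2 change was 2.81 ± 0.40 (adjusted p = 1.32e-06). For Sostdc1 the log2 fold change was 1.28 ± 0.09 (adjusted p = 7.93e-12), with 130 to 190 against 418 to 520 CPM in batch A and 295 to 374 against 610 to 829 CPM in batch B. Ccn2, a matricellular growth factor gene also called Ctgf, was lower in all 3 fits (-2.29 ± 0.39 over both batches, adjusted p = 1.7e-05).

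The test of a difference between batches passed for 4 of the 9 response genes, where 7.04% of all genes passed; these 4 are named after their values were seen. Shh, the hedgehog ligand, was at 6.72 to 28.8 CPM in Sox2-negative and 76.1 to 123 CPM in Sox2-positive libraries of batch A, and at 25.6 to 72.2 and 23.3 to 42.9 CPM in batch B. Its log2 fold change was 2.49 ± 0.29 in batch A and -0.46 ± 0.25 in batch B, and the difference passed (-3.01 ± 0.40, adjusted p = 1.07e-05). Lrp4, a co-receptor that binds Sostdc1, went from -1.23 in batch A to 0.21 in batch B (interaction adjusted p = 0.00585), and Wnt10a, a Wnt ligand of the tooth, from -0.81 to -2.10 (0.037). Ltb, the lymphotoxin beta gene, held at most 1 count in any Sox2-positive library of batch A and 6.46 to 32.6 CPM in the Sox2-negative ones, against 0 to 1.68 and 0.326 to 3.57 CPM in batch B (interaction adjusted p = 0.000695).

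Of 12 other receptors and ligands of the tumour necrosis factor family, all of which passed the filter over both batches, 4 were higher and 6 lower in Sox2-positive cells; 83.3% were called, against 57.5% of all genes. Relt and Tnfrsf12a, the receptor of the cytokine TWEAK, were higher in all 3 fits (2.15 ± 0.30 and 1.85 ± 0.30 over both batches, adjusted p = 7.05e-07 and 9.49e-06). Relt ran from 2.88 to 19.5 against 28.6 to 59.4 CPM in batch A and from 2.55 to 15.2 against 22.04 to 56.0 CPM in batch B. Tnfrsf19, the receptor called Troy and a close relative of Edar and Eda2r, was lower in all 3 fits, at 153 to 302 against 33.9 to 75.3 CPM in batch A and 76.1 to 115 against 61.2 to 87.2 CPM in batch B. Its difference was smaller in batch B (interaction 1.37 ± 0.28, adjusted p = 0.00198). Tnfsf11, the ligand RANKL, its receptor Tnfrsf11a, and the tumour necrosis factor receptor Tnfrsf1b were also lower in all 3 fits. Tnfrsf1b held 53 to 240 counts in batch A Sox2-negative libraries and 0 in every Sox2-positive one. Ngfr, the neurotrophin receptor p75, stood at 280 to 327 CPM in batch A Sox2-positive libraries and at 17.5 to 56.4 CPM elsewhere (interaction -3.51 ± 0.36, adjusted p = 2.48e-07; named after its values were seen). The glial marker sum moved with it, at 782 to 995 CPM in that group, and its part in the Ngfr level was not tested.

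**Figure D4:**
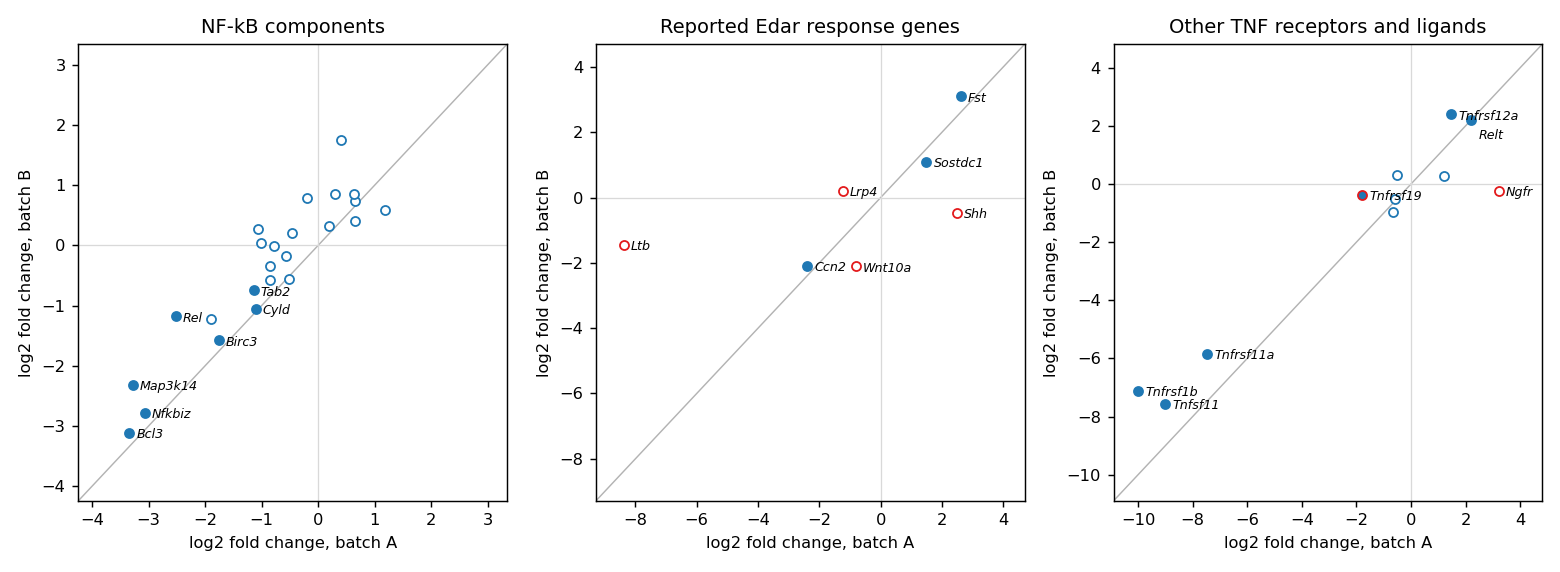
Log2 fold change of Sox2-positive over Sox2-negative cells in batch A (horizontal axis) and batch B (vertical axis) for the genes tested in both, in 3 lists: NF-κB components, genes reported to respond to Edar, and other receptors and ligands of the tumour necrosis factor family. Filled points were called in the same direction over both batches and in each batch, red outlines mark genes whose difference between batches passed the test, and the diagonal marks equal values; Shh (2.49 and -0.46) and Ngfr (3.21 and -0.24) lie far from it. The batch A value of Tnfrsf1b, which had 0 counts in every Sox2-positive library, and that of Ltb depend on the prior count of the fit.

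Genes whose pattern over the 23 libraries came closest to a member were found by the root mean square difference of centred log2 CPM, among 12982 genes with a mean of at least 5 CPM over the libraries. Each value is on the log2 scale, and 0 would be an identical pattern. For Eda these were Tox3 (0.85), Lyrm1 (1.01) and Ccdc148 (1.04), where the median gene stood at 2.07. For Edaradd they were Pecr (0.64), Serinc2 (0.69) and Tedc1 (0.72), with a median of 1.76. For Edar the nearest genes were Dclre1b (1.16), Slc22a23 (1.31) and Rhebl1 (1.36), with a median of 1.81, and for Eda2r Sema4g (0.99), Ubr4 (1.02) and Atp10d (1.03), with a median of 1.52. A gene with no change over the libraries would stand at 1.98 from Eda, 1.66 from Edaradd, 1.68 from Edar and 1.35 from Eda2r, each below the median gene. Edar and Eda2r were sparse, so their distances also hold counting error. In the Sox2-positive libraries of batches A and B, the 3 nearest to Edaradd averaged 69.2 and 68.6 CPM (Pecr), 162 and 200.2 CPM (Serinc2) and 62.8 and 31.4 CPM (Tedc1), so the third alone was lower in batch B as Edaradd was. The 3 nearest to Eda averaged 9.71 and 18.0 CPM (Tox3), 6.74 and 6.72 CPM (Lyrm1) and 8.54 and 9.79 CPM (Ccdc148) in the same groups. These means were not tested.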

How the data were processed

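Bulk RNA-seq (Smart-seq2) was analysed in 23 libraries from 1 table of estimated counts (expected counts) per gene that the authors deposited, with no scaling between libraries. FastQC, Trimmomatic, Salmon and the build mm10 are named in the submitters' processing notes, without versions; the strand setting is not given in the sources used here. Symbols came from GENCODE M21 for 54094 of 54347 identifiers (99.5%). Unused per-sample columns: 0. Estimated counts of one gene depend on how reads shared between transcripts or genes were divided.

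The estimated counts were rounded and tested with edgeR 4.0.16 (R 4.3.3): TMM scaling, filterByExpr over the 4 groups (minimum count 10), and the quasi-likelihood F test. Sox2-positive was compared with Sox2-negative with batch as a covariate, and in each batch alone; a fit of the 4 group means gave the interaction (batch B minus batch A) and the batch differences within a population. P-values are two-sided and adjusted by Benjamini-Hochberg over all genes tested, with calls under 0.05. A standard error is the log2 fold change over the square root of F. Ranges are of TMM-scaled CPM, and the likeness used log2 CPM with a prior count of 2. On simulated data of 17190 genes, 96 were changed by 1 and 104 by 2 on the log2 scale, and no other gene was. The comparison of both batches recovered 44.8% and 62.5% of these changes, and the interaction recovered 6.25% and 27.9%. In the data 57.5% of genes were called over both batches, so the simulation does not give the recovery for these data.

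The 8 genes and the lists were chosen with earlier results of these data known. Every member is named; of each list the text names up to 4 genes at either end among those called over both batches and in each batch with one sign, genes with opposite calls and genes that failed the filter, and for likeness the 3 nearest genes. Markers came from lists of 10 epithelial, 10 mesenchymal, 10 leukocyte, 7 endothelial, 6 erythroid, 6 glial, 6 ameloblast and 10 immediate early genes. Endothelial markers summed to 827 to 1029 and 203 to 251 CPM in Sox2-negative and 0.637 to 10.9 and 1.82 to 7.03 CPM in Sox2-positive libraries of batches A and B; ameloblast markers summed to 747 to 940 and 593 to 712, and 289 to 349 and 6.82 to 10.1 CPM. No 2 libraries of a group agreed within sampling noise (57 pairs, chi-square per degree of freedom at least 5.08). Promoter windows came from RefSeq on GRCm38.p6. Alternatives were RLE size factors, total-count scaling, no low-count filter, DESeq2 1.42.0, a replicate block, a fit of 4 group means and leaving out libraries.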

Additional observations from a re-analysis of the deposited data

Results flagged for a closer look

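In 6 of the 32 groups of a gene's values, 1 library stood far from the rest of its group by Dixon's criterion. Its rate of about 1 in 20 groups holds for normal values and not for groups mostly at 0, where any single count is marked, so the number of such groups is a description. Eda in batch A Sox2-negative library 6 was at 31.7 CPM (118 counts), where the next library held 2.59 CPM. Edar in batch A Sox2-negative library 1 was at 3.88 CPM (15 counts), where the next held 0.806 CPM. Eda2r was at 2.07 CPM (8 counts) in the same library 1, with the other 5 at 0, and at 3.39 CPM (18 counts) in batch A Sox2-positive library 3. Eda2r was also at 0.238 CPM (2 counts) in batch B Sox2-negative library 1, with the other 3 at 0, and at 7.78 CPM (18 counts) in batch B Sox2-positive library 7, where the next held 2.91 CPM. All of these except Eda rest on 18 counts or fewer.

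The population difference of Nfkbia differed between the batches by 0.93 on the log2 scale, batch B minus batch A (edgeR interaction, adjusted p = 0.0231). The call was lost without the low-count filter, with the replicate block, without the batch B libraries numbered 1 and 2, and without Sox2-negative library 1 or 2 of batch B. All 6 Sox2-positive libraries of batch A lay below all 6 Sox2-negative ones, and in batch B the 7 Sox2-positive libraries lay within the span of the 4 Sox2-negative ones.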

How the results depend on the processing

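Of 1125 recomputed member values, 1010 kept their direction and side of the threshold, 81 lost a call, 17 gained one and 17 changed sign, none of them called. The calls of Edaradd over both batches and in each batch, and of Ikbkg over both batches and in batch B, held throughout. Every setting used the same counts, in which Ikbkg may hold reads of G6pdx. Counts of members called over both batches (5) were 3 with total-count scaling, without the filter and without the batch B libraries numbered 1 and 2, and 2 to 5 leaving out each library. For the interaction (1) they were 0 without the filter, with the block and without those libraries, and 0 to 2. Within Sox2-negative cells (1) they were 0 with RLE size factors, 2 with DESeq2, 0 without those libraries, and 0 to 2. Within Sox2-positive cells (0) they were 1 with total-count scaling, without the filter and with DESeq2, and 0 to 1. In batch A (3) and batch B (3) they were 2 to 3 and 3 to 4 leaving out each library; other settings gave 3 in batch A except for the block below, and 3 or 4 in batch B, where the fit of 4 group means lost Eda and still called 3. Without the batch B libraries numbered 1 and 2, genes called numbered 481 for the interaction (1210 in the main comparison), 754 within Sox2-negative (1924) and 1159 within Sox2-positive cells (1785). Leaving out each library gave 9621 to 10091 genes called over both batches, 5805 to 6300 in batch A, 8005 to 8794 in batch B, 938 to 1254 for the interaction, and 1331 to 1989 and 1497 to 1892 within the populations. Total-count scaling moved the median of all genes by over 0.1: over both batches from -0.12 to 0.0034, and within Sox2-negative cells from -0.0041 to -0.15. It moved the split of genes called, higher and lower in batch B, from 1005 and 919 to 661 and 1388 within Sox2-negative, and from 833 and 952 to 666 and 1214 within Sox2-positive cells.

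Replicate numbers shared by groups gave little sign of paired libraries in 1 measure. Over 10 pairs the correlation of deviations ran from -0.0212 to 0.0444, and 1 library correlated best with its own number. The highest values were those of numbers 1 and 2 of batch B (0.04 and 0.0444). These numbers stood apart in epithelial sum (Sox2-positive) and mitochondrial share (Sox2-negative) above. The measure cannot exclude shared mice or a shared subset of a batch. With the number as a block, 8795 genes were called over both batches (4 members; Eda2r gained a call, 3.63, adjusted p = 0.0356, and Nfkbia, 0.0569, and Relb, 0.132, lost theirs), 5829 in batch A (4 members; Eda called, 3.48, adjusted p = 0.0344), 6668 in batch B (3 members) and 557 for the interaction, where Nfkbia was at adjusted p = 0.0887. No paired analysis was possible for the batch differences because the block lies within a batch.

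Signs changed as follows on the log2 scale. With the block, Edar in batch B was 0.36 and the Eda interaction -1.43. Without the batch B libraries numbered 1 and 2, Nfkbia in batch B was -0.20 and the Relb interaction 0.03. With total-count scaling, Traf6 within Sox2-positive cells was -0.0394. Leaving out 1 library, the lowest and highest values were -0.0179 and 0.33 for Nfkbia in batch B, -2.09 and 1.23 for the Eda interaction, -0.36 and 0.40 for the Ikbkg interaction, -0.63 and 0.0461 for Ikbkg, -0.26 and 0.19 for Relb and -0.0034 and 0.68 for Edaradd within Sox2-negative cells, and -0.0743 and 0.27 for Traf6 within Sox2-positive cells. The cause was not tested. DESeq2 gave no adjusted p for Eda over both batches. Edar and Eda2r rest on few counts, at 47 and 18 at most.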
